A study of Mus musculus with 11 samples.

Results

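The miR-17-92 and miR-106b-25 clusters are groups of miRNA hairpins that are cut from shared primary transcripts, and 5 of their mature miRNAs were followed in mouse feces: miR-106b-3p, miR-93-5p and miR-25-3p from miR-106b-25, and miR-20a-5p and miR-92a-3p from miR-17-92. They were taken by name, and all 5 were found among the 616 rows of the count table. The libraries hold small RNA from the feces of C57BL/6 mice given dextran sulfate sodium (DSS), a sulfated polysaccharide that damages the colonic epithelium and brings on colitis. The 11 libraries comprised 4 taken before DSS (titled as day 0, with table columns that say day 1), 3 taken after 5 days of 2.5% DSS in the drinking water (day 5), and 4 taken after the same 5 days followed by 7 days of recovery on water without DSS (day 12). No group of untreated mice on day 5 or day 12 was analysed here, so phase and sampling day cannot be told apart, and the labels used here state neither age nor sex. The labels do not say whether libraries of a group came from separate mice, and the p-values therefore reflect only how far the libraries spread, which may be partly technical.

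Both clusters are known for their link to cell proliferation. The miR-17-92 cluster is transcribed from Mir17hg, a host gene activated by the transcription factor Myc, and its overexpression drives the growth of lymphoid and other cells. The miR-106b-25 cluster is carried by the transcript of Mcm7, which encodes a subunit of the helicase that unwinds DNA at replication origins. A miRNA recognises its target mRNAs mainly through its seed, bases 2 to 8, and miRNAs that share a seed can share targets. The miR-17 seed family is known to repress Cdkn1a, an inhibitor of the cell cycle, and the miR-25 seed family to repress Bcl2l11, which promotes cell death. In feces these miRNAs can come from shed epithelial cells, leukocytes and blood, since miR-25 and miR-92a are also abundant in red blood cells.

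The mature sequences are shown because they explain which members can be compared with each other: 2 members have the miR-17 seed, 2 have the miR-25 seed, and miR-106b-3p has neither. All are from RefSeq (GRCm38.p6), 5′ to 3′, with the seed in capitals.
miR-106b-3p: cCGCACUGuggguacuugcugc
miR-93-5p: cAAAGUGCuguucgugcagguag
miR-20a-5p: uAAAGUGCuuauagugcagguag
miR-25-3p: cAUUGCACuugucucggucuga
miR-92a-3p: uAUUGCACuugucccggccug
Counted from 1 at the 5′ end, miR-25-3p and miR-92a-3p differed at 3 of 21 aligned bases (C1U, U14C and U18C, with the base of miR-25-3p first), and miR-25-3p was 1 base longer. miR-93-5p and miR-20a-5p differed at 4 of 23 bases (C1U, G10U, U11A and C13A, with the base of miR-93-5p first). Outside the 5 members, 2 of the miRNAs compared were 2 bases away from a member. These were miR-17-5p, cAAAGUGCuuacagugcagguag, which differed from miR-20a-5p at U1C and U12C, and miR-92b-3p, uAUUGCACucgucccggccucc, which differed from miR-92a-3p at U10C and G21C over 21 bases. The number of mismatches allowed in the authors' counting is not given in the sources used here, so counts of such near-identical miRNAs could have been split or shared.

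In GRCm38 the hairpins of miR-106b, miR-93 and miR-25 lie on the minus strand of chromosome 5 (138165737 to 138165818, 138165523 to 138165610 and 138165321 to 138165404). All 3 lie within Mcm7, in introns of 2 annotated transcripts each, and those of miR-93 and miR-25 also overlap an exon of 1 further transcript. The hairpins of miR-20a (115044157 to 115044263) and miR-92a-1 (115044427 to 115044506) lie on the plus strand of chromosome 14, in an exon of the long noncoding RNA Mir17hg. A second hairpin of miR-92a lies on chromosome X (52741838 to 52741928, minus strand) in the related miR-106a-363 cluster and gives the same mature miR-92a-3p, so the counts of miR-92a-3p cannot be assigned to 1 cluster.

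All 5 members were detected in all 11 libraries, with between 8 and 321 counts. Levels are given as TPM, the count divided by the library's total of miRNA counts on the scale of the deposited TPM values. Library totals ran from 11749 to 40835 counts, so that 3 counts corresponded to 73.5 TPM in the deepest library and 255.3 TPM in the shallowest. The mature lengths of 21 to 23 bases are close, so the missing length term matters little for ranking the members. The ranks are those of counts, and how evenly the libraries captured different miRNAs was not tested. miR-92a-3p was the most abundant (mean 8092 TPM over the 11 libraries, rank 25 of 616 rows) and made up 50.7% of the 3385 counts of the 5 members. It was followed by miR-25-3p (4321 TPM, rank 36), miR-106b-3p (1501 TPM, rank 78), miR-93-5p (1266 TPM, rank 85) and miR-20a-5p (625 TPM, rank 105). miR-92a-3p exceeded miR-25-3p in 11 of 11 libraries, as miR-25-3p exceeded miR-106b-3p and miR-93-5p exceeded miR-20a-5p. miR-106b-3p exceeded miR-93-5p in 7 of 11, by a ratio from 0.68 to 2.11, so these neighbours in the order did not differ beyond their spread.

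The other arms and the other hairpins of the clusters each gave fewer counts than any of the 5 members. Of 26 further miRNAs that are arms of the miR-17-92, miR-106b-25 or miR-106a-363 hairpins or carry either seed, 12 were analysed here and 14 were not. miR-17-5p, the first miRNA of its cluster, had 91 counts over all libraries. miR-19b-3p had 21, and the remaining miR-17-92 arms had 1 to 6. From miR-106a-363, miR-363-3p had 79 counts and miR-20b-5p had 4, and outside the clusters miR-92b-3p had 95 and miR-32-5p had 13. The 3p arm of miR-25 held 923 of 928 counts of its hairpin, and no library had fewer than 98.4% on that arm.

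**Figure D1:**
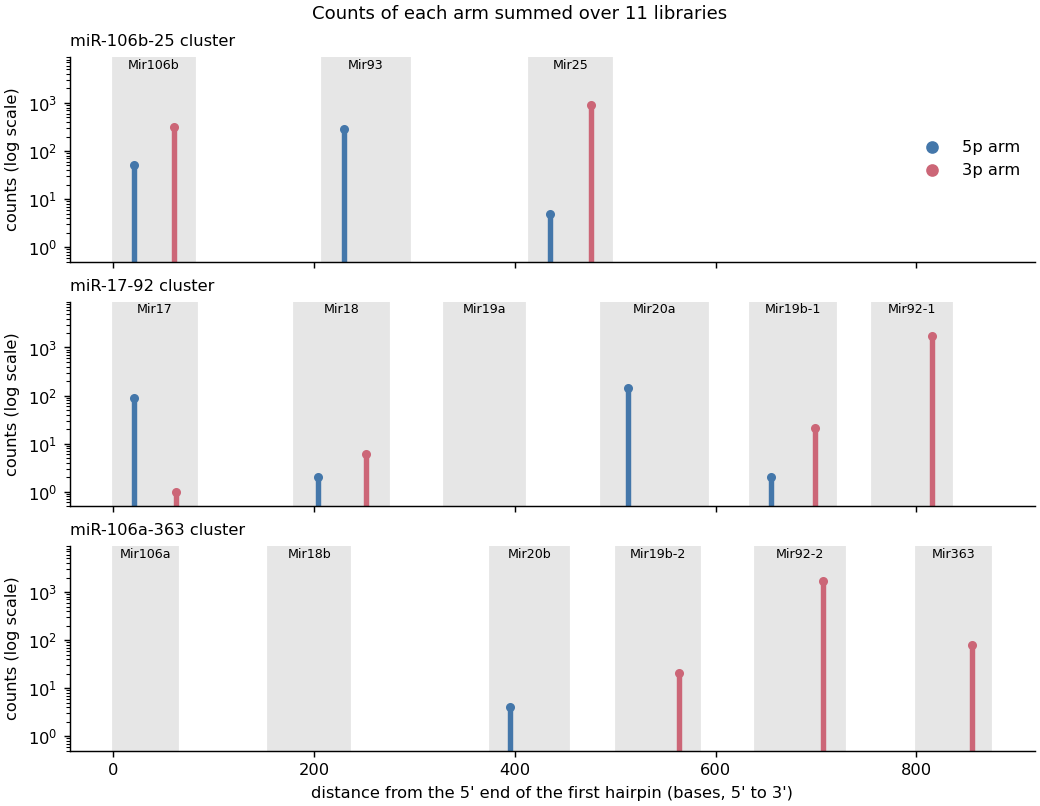
Counts of each mature arm summed over the 11 libraries (y axis, log scale) against the distance in bases from the 5′ end of the first hairpin of the cluster (x axis). Shaded bands are hairpins, blue marks the 5p arm and red the 3p arm, arms not analysed here have no bar, and miR-92a-3p (1717 counts) and miR-19b-3p (21 counts) are drawn at both of their hairpins.

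miR-106b was the hairpin with the most even counts of both arms among those of the members with both arms analysed. The 3p arm held 318 of 368 counts, or 86.4% (exact 95% binomial interval 82.5% to 89.7%). By phase it was 78.5% ± 12.4 of the counts of the hairpin before DSS (SD, n = 4 libraries), 93.0% ± 2.92 on day 5 (SD, n = 3) and 87.8% ± 11.3 on day 12 (SD, n = 4). The range before DSS, 64.3% to 94.4%, overlapped that on day 5, 89.7% to 95.2%. miR-106b-5p, the arm with the miR-17 seed, had 23 counts before DSS, 8 on day 5 and 19 on day 12, too few to be tested. These intervals cover counting error only.

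The first comparison set day 5, the acute phase of colitis, against the starting profile, and the 3 miR-106b-25 members had higher TPM in every day 5 library than in any before-DSS library, where 16.1% of all 137 miRNAs tested did. Their mean TPM was 2.32 to 2.92 times as high. The ratio of means was 1.91 for miR-92a-3p and 1.18 for miR-20a-5p, whose libraries overlapped between the phases. With library totals only, as in TPM, the median log2 fold change of all 137 was itself 0.36. In CPM with TMM factors, which correct for composition, the ratios were 1.78 to 2.40 for the 3, 1.51 for miR-92a-3p and 0.942 for miR-20a-5p. None of the 5 passed the threshold of an adjusted p of 0.05 over all 137 miRNAs tested. In bulk fecal RNA, more or fewer cells of a type and more or less RNA per cell cannot be told apart.

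miR-106b-3p, the arm opposite the seed-bearing miR-106b-5p, stood at 559, 1284, 1215 and 646 TPM in before-DSS libraries 1 to 4, at 3301, 2088 and 2724 TPM in day 5 libraries 1, 3 and 4, and at 735, 1272, 1795 and 896 TPM in day 12 libraries 1 to 4. All day 5 libraries were above all libraries of the other phases, and the ranges before DSS and on day 12 overlapped. The fitted log2 fold change on day 5 against before DSS was 1.26 ± 0.36 (SE), with TMM factors, which correct for composition (edgeR adjusted p = 0.126, unadjusted 0.00369). It was the only member that passed under any alternative, with DESeq2 (log2 fold change 1.25, adjusted p = 0.0157) and in edgeR with library totals in place of TMM factors (1.59, adjusted p = 0.0478).

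miR-93-5p, a member of the miR-17 seed family, stood at 822, 1057, 583 and 682 TPM before DSS, at 1567, 1686 and 2213 TPM on day 5, and at 686, 1219, 2233 and 1183 TPM on day 12. Its day 5 and before-DSS ranges did not overlap. The day 12 libraries ran from within the before-DSS range to just above the highest day 5 value. The log2 fold change on day 5 against before DSS was 0.83 ± 0.38 (SE, edgeR adjusted p = 0.198).

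miR-25-3p, which gives its seed family its name, stood at 2531, 3323, 3790 and 2260 TPM before DSS, at 6491, 8270 and 6554 TPM on day 5, and at 1665, 4400, 5624 and 2617 TPM on day 12. All day 5 libraries again lay above all others. The log2 fold change on day 5 against before DSS was 0.89 ± 0.30 (SE, edgeR adjusted p = 0.155).

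miR-20a-5p, the miR-17-92 member with the same seed as miR-93-5p, stood at 493, 982, 534 and 466 TPM before DSS, at 615, 642 and 936 TPM on day 5, and at 416, 424, 1037 and 323 TPM on day 12. The ranges of all phases overlapped. Each value rested on 8 to 26 counts. In day 5 library 3, the 8 counts gave a 95% Wilson interval of 325.5 to 1267 TPM. The log2 fold change on day 5 against before DSS was -0.08 ± 0.42 (SE, edgeR adjusted p = 0.946), and its direction turned when 1 library was left out, to 0.089 without before-DSS library 2 and 0.040 without day 5 library 3. It was 0.29 with library totals only and 0.092 without the 72 numbered rows, settings that moved the median of all miRNAs by 0.33 and 0.16.

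miR-92a-3p, the most abundant member, stood at 4734, 8686, 7046 and 3588 TPM before DSS, at 7722, 15818 and 10980 TPM on day 5, and at 3061, 11451, 12803 and 3119 TPM on day 12. Before-DSS library 2 lay above the lowest day 5 library in TPM. On the CPM scale with TMM factors the day 5 libraries (7519 to 12529 CPM) lay above the before-DSS libraries (4974 to 7348 CPM), by a narrow margin. The log2 fold change on day 5 was 0.60 ± 0.39 (SE, edgeR adjusted p = 0.398), and 0.36 without day 5 library 3.

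**Figure D2:**
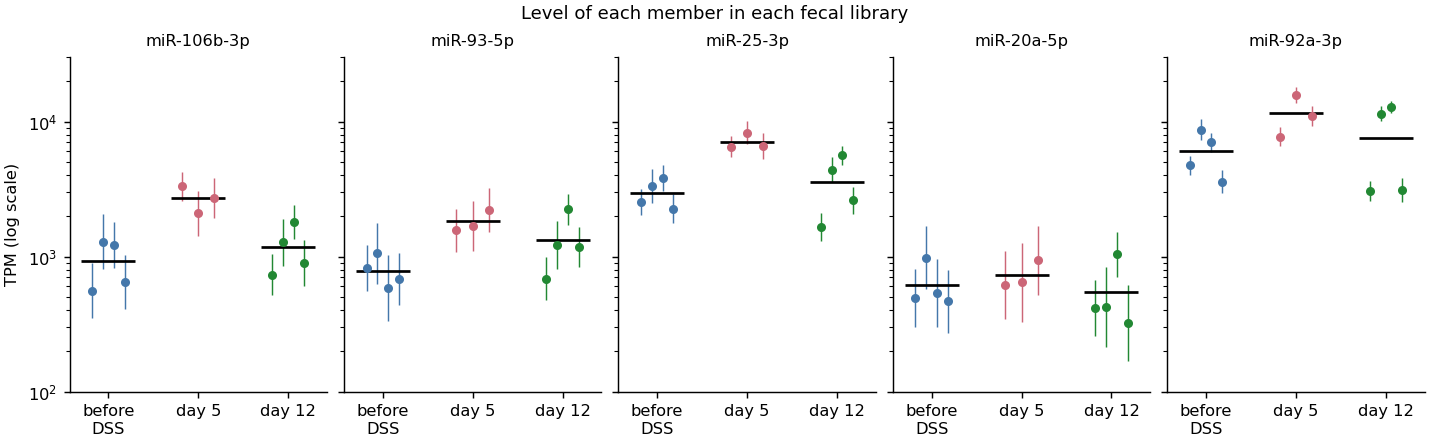
TPM (y axis, log scale) of the 5 members in the 4 before-DSS, 3 day 5 and 4 day 12 libraries. Points are libraries in the order of their numbers, vertical lines are 95% Wilson intervals for counting error, and horizontal bars are group means: the day 5 points of miR-106b-3p and miR-25-3p lie above all others, and those of miR-20a-5p do not.

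Counted together, 0 of 5 members passed the edgeR threshold on day 5 against before DSS, where 0% of all 137 miRNAs did (0 of 137; 5 with DESeq2, 11 with library totals only and 16 with the replicate number as a block). Taking unadjusted p below 0.05, miR-106b-3p, miR-25-3p and miR-93-5p were higher, 3 of 5, and 0 were lower, where 13.1% of all miRNAs were higher and 11.7% lower. The log2 fold change was above 0 for 4 of 5 members and for 51.1% of all. DESeq2 called 1 member and limma-voom called 0. The groups did not overlap, with day 5 higher, for 3 members in TPM (16.1% of all miRNAs) and 4 in CPM with TMM factors (13.9% of all), and with day 5 lower for 0 (5.11% and 4.38% of all). The median log2 fold change was 0.83 over the 5 members and 0.03 over all 137. Under library totals only, the 0.29 of miR-20a-5p lay below the shift of that median and the 1.59 of miR-106b-3p above it.

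Day 12 was compared with before DSS to ask what remained different after recovery. The ratio of mean TPM to that before DSS was 1.69 for miR-93-5p, 1.20 to 1.27 for miR-106b-3p, miR-25-3p and miR-92a-3p, and 0.889 for miR-20a-5p. Of the 5 members 0 passed, where 6.57% of all 137 miRNAs did (9, all higher, or 15 with the replicate number as a block). The 9 include miR-142a-3p and miR-142b, whose fitted values were the same, so the same reads may have been counted in both. Members with an unadjusted p below 0.05 also numbered 0, where 12.4% of all miRNAs were higher and 4.38% lower at that p. DESeq2 and limma-voom called 0 members, and 12 and 8 of all 137 miRNAs. The log2 fold change was above 0 for 4 of 5 members and for 46.7% of all. In TPM and in CPM with TMM factors alike, 0 members had groups that did not overlap, where 9.49% and 8.76% of all miRNAs lay higher on day 12 and 4.38% and 2.92% lower. The median log2 fold change of the members was 0.21, and that of all 137 was -0.02.

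Of the 5, miR-93-5p had the largest log2 fold change on day 12 against before DSS, 0.67 ± 0.35 (SE, edgeR adjusted p = 0.355), from 786 ± 206 to 1330 ± 649 TPM (SD, n = 4 each). miR-106b-3p had 0.32 ± 0.33 and miR-25-3p 0.16 ± 0.28 (log2, SE), the latter 0.0017 without day 12 library 3. miR-92a-3p had 0.21 ± 0.36 and miR-20a-5p -0.20 ± 0.38 (log2, SE). The directions of these last 2 did not hold throughout, with -0.038 for miR-92a-3p without day 12 library 3 and 0.021 for miR-20a-5p without before-DSS library 2.

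The day 12 libraries differed widely in miR-92a-3p. It had 7608 ± 5247 TPM on day 12 (SD, n = 4), with libraries 2 and 3 within the day 5 range and libraries 1 and 4 below every before-DSS library. The coefficient of variation was 69.0% on day 12, 38.1% before DSS and 35.4% on day 5. A wide spread on day 12 was not particular to miR-92a-3p. The coefficient on day 12 was 40.1% for miR-106b-3p, 48.8% for miR-93-5p, 49.6% for miR-25-3p, 59.6% for miR-20a-5p and 62.2% for miR-451a. In TPM, miR-25-3p and miR-106b-3p were also highest in libraries 2 and 3. With TMM factors, miR-106b-3p was higher in day 12 library 4 (1272 CPM) than in library 2 (1125 CPM). Day 12 libraries 1 and 4 had the TMM factors 0.75 and 0.72, and libraries 2 and 3 had 1.20 and 1.21. Before-DSS libraries 1 and 4 likewise had low factors, 0.79 and 0.73, and the lowest TPM of miR-92a-3p in their group. With TMM factors the SD of miR-92a-3p in CPM was 1086 around a mean of 6398 before DSS and 3608 around 7398 on day 12, so the scaling narrowed the spread and did not remove it on day 12. The part of library composition in these differences was not tested.

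The last comparison set recovery (day 12) against acute colitis (day 5). All 5 members had lower fitted values on day 12, so 0 of 5 had a log2 fold change above 0, where 49.6% of all miRNAs had. Of the members 0 passed, where 3.65% of all did (5, or 14 with the replicate number as a block). The comparison uses the same day 5 libraries as the first, so it is not a separate observation of their high values. DESeq2 and limma-voom also called 0 members.

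miR-106b-3p was lower on day 12, with a log2 fold change of -0.94 ± 0.35 (SE, edgeR adjusted p = 0.157), from 2704 ± 607 TPM (SD, n = 3) on day 5 to 1175 ± 471 TPM (SD, n = 4). miR-25-3p had -0.73 ± 0.30 (log2, SE, edgeR adjusted p = 0.186), from 7105 ± 1010 TPM (SD, n = 3) to 3577 ± 1774 TPM (SD, n = 4). These were the 2 members with an unadjusted p under 0.05 (5.84% of all miRNAs were lower at that p) and the 2 whose groups did not overlap, in TPM (8.76% of all lower) and in CPM with TMM factors (7.30% of all lower). miR-92a-3p had -0.39 ± 0.39, miR-93-5p -0.15 ± 0.37 and miR-20a-5p -0.11 ± 0.42 (log2, SE). The value of miR-92a-3p was -0.15 without day 5 library 3, that of miR-93-5p was 0.0022 without day 12 library 1, and that of miR-20a-5p was 0.051 without day 5 library 4 and 0.076 without day 12 library 2. The median over the members was -0.39 and that over all 137 miRNAs was -0.03.

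**Figure D3:**
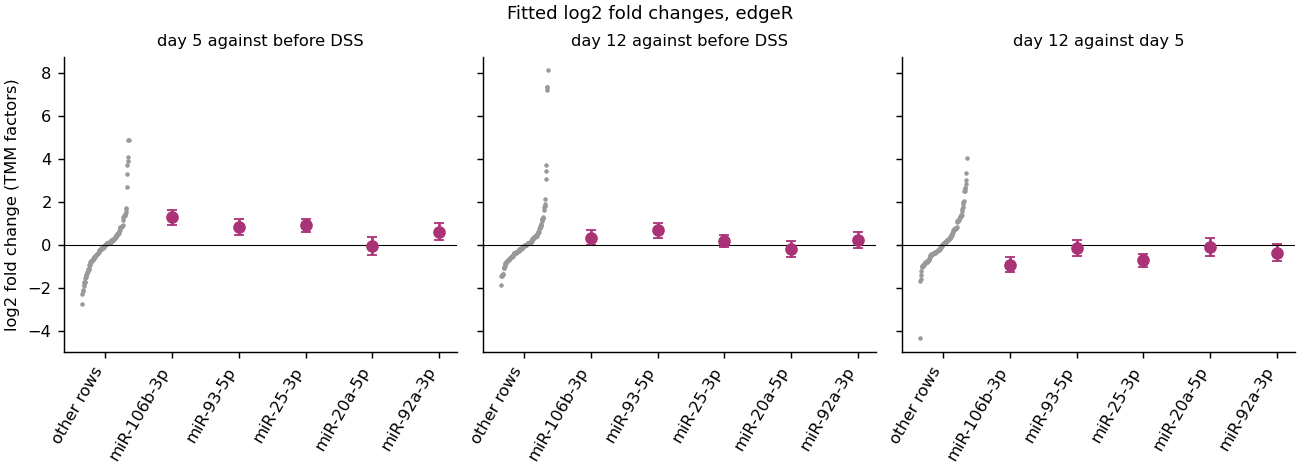
Fitted log2 fold change with TMM factors (y axis) in the 3 comparisons, for the 5 members with their standard errors (purple) and for the other 132 tested rows as sorted grey points. miR-106b-3p is the highest member on day 5 against before DSS (1.26) and the lowest on day 12 against day 5 (-0.94).

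Ratios of counts within a library do not depend on scaling, and each pair of seed mates sets a miR-106b-25 member against a miR-17-92 member, with the limit that miR-92a-3p also has its chromosome X hairpin. The ratio of miR-93-5p to miR-20a-5p was 1.67, 1.08, 1.09 and 1.46 in before-DSS libraries 1 to 4, 2.55, 2.63 and 2.36 in day 5 libraries 1, 3 and 4, and 1.65, 2.88, 2.15 and 3.67 in day 12 libraries 1 to 4. Every day 5 library was above every before-DSS library, and day 12 library 1 lay just below before-DSS library 1. These ratios rest on 8 to 26 counts of miR-20a-5p a library, and their counting error was not estimated. How often ratios of other pairs of miRNAs separate in this way was not tested. The mean log2 ratio was higher by 0.92 on day 5 and by 0.90 on day 12 than before DSS. Exact two-sided permutation tests gave p = 0.0571 for each, with an adjusted p of 0.171 over the 6 ratio tests. On day 5 this was the smallest p that 3 against 4 libraries allow, and 4 against 4 libraries allow 0.0286. Between day 12 and day 5 the difference was -0.01 (exact permutation p = 1.0).

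The ratio of miR-25-3p to miR-92a-3p, the pair with the miR-25 seed, was 0.53, 0.38, 0.54 and 0.63 before DSS, 0.84, 0.52 and 0.60 on day 5, and 0.54, 0.38, 0.44 and 0.84 on day 12. The phases overlapped. The mean log2 ratio differed by 0.32 between day 5 and before DSS (exact permutation p = 0.400, adjusted 0.686), by 0.04 between day 12 and before DSS (p = 0.857, exact permutation) and by -0.28 between day 12 and day 5 (p = 0.457, exact permutation). Whether the shift of one ratio differed from that of the other was not tested.

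**Figure D4:**
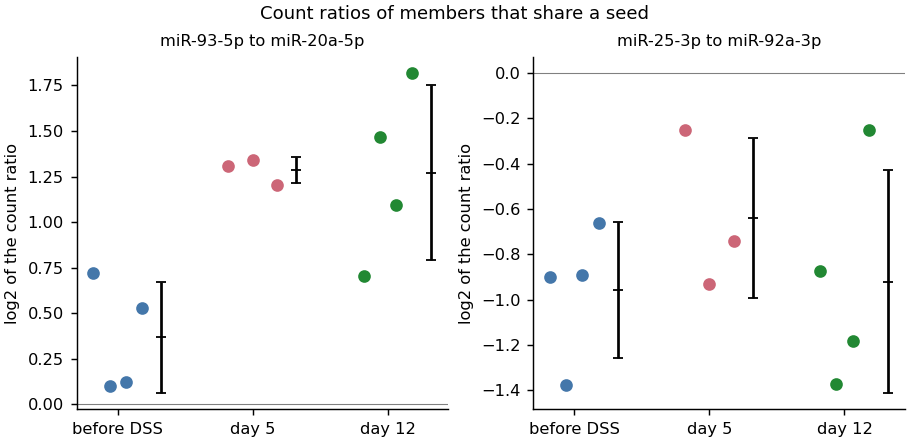
Log2 of the count ratio (y axis) of miR-93-5p to miR-20a-5p and of miR-25-3p to miR-92a-3p, with 0.5 added to each count, in each library by phase. Black bars are the mean and SD of the phase: the left ratio is near 0.37 before DSS and near 1.28 on day 5 and 1.27 on day 12, and the right ratio overlaps in all phases.

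Among the other miRNAs of the clusters and seeds, 3 of the 12 analysed passed the filter on low counts, and 0 of these passed the edgeR threshold in any comparison. miR-363-3p, of the miR-25 seed family, had 3, 5, 7 and 6 counts before DSS, 7, 17 and 9 on day 5, and 2, 10, 8 and 5 on day 12. Its log2 fold change was 1.34 ± 0.61 (SE) on day 5 against before DSS (edgeR adjusted p = 0.198) and -1.40 ± 0.60 on day 12 against day 5 (edgeR adjusted p = 0.210). miR-17-5p, which differs from miR-20a-5p at 2 bases and comes from the same transcript, had log2 fold changes against before DSS of 0.07 ± 0.58 (SE) on day 5 and 0.28 ± 0.51 (SE) on day 12. miR-92b-3p, a seed mate of miR-92a-3p from a separate hairpin, had 0.27 ± 0.61 and -0.78 ± 0.58 (log2, SE).

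Likeness across the 11 libraries differed between pairs of members. Pearson's r of log2 CPM with TMM factors was 0.81 between miR-106b-3p and miR-25-3p, 0.72 between miR-25-3p and miR-92a-3p, 0.58 between miR-93-5p and miR-25-3p, and 0.57 between miR-106b-3p and miR-93-5p. miR-20a-5p had r between -0.02 and 0.19 with each of the other 4, at counts of 8 to 26 a library. The rows most like each member over the 11 libraries were the numbered row novel_249 (0.82) and miR-25-3p for miR-106b-3p, miR-425-5p (0.73) and miR-16-5p (0.65) for miR-93-5p, and miR-27a-5p (0.85) and miR-106b-3p for miR-25-3p. They were miR-7a-5p (0.57) and miR-199a-3p (0.54) for miR-20a-5p, and miR-30d-5p (0.91) and miR-125a-5p (0.90) for miR-92a-3p. These are descriptions over libraries that share phase and scaling.

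Markers of the cells that feces can hold were read beside the members. Of the 8 miRNAs listed for red blood cells, 7 were analysed and 5 passed the filter, and their summed level ran from 12630 to 32100 TPM before DSS, from 37016 to 61452 TPM on day 5 and from 10065 to 48292 TPM on day 12. On day 5 against before DSS the fitted values of all 5 tested were above 0 (median log2 fold change 0.81), where 51.1% of all 137 miRNAs were. Of the 5, 0 passed the edgeR threshold. The list did not move as one on day 12 against day 5, where 4 were below 0 and 1 was above, miR-16-5p with 0.22 ± 0.54 (log2, SE). miR-451a, the miRNA most typical of red blood cells, had 1.44 ± 0.51 (log2, SE, edgeR adjusted p = 0.155), while miR-144-3p and miR-144-5p, from the same primary transcript as miR-451a, had 0 counts before DSS, 7 and 5 on day 5, and 3 and 1 on day 12. The list held 1.30%, 3.21%, 2.21% and 1.26% of counts in before-DSS libraries 1 to 4, where the 5 members held 0.914%, 1.53%, 1.32% and 0.764%. In these shares the libraries had the same order for both. In summed CPM with TMM factors they did not, with library 3 highest for the members (13733 CPM) and library 2 for the list (26358 CPM). On day 5 the list held 5.76%, 3.70% and 6.15% in libraries 1, 3 and 4, and the members 1.97%, 2.85% and 2.34%. On day 12 it held 1.01%, 2.45%, 2.23% and 4.83% in libraries 1 to 4, and the members 0.656%, 1.88%, 2.35% and 0.814%. Both lists were higher in every day 5 library than in any before-DSS library, and their order within day 5 and within day 12 differed. Counts of miR-486a-5p, miR-486a-3p and miR-486b-3p nearly coincided (318, 315 and 315 before DSS, 352, 354 and 351 on day 5, and 485, 481 and 481 on day 12). The same reads may therefore have been counted more than once in the sum, in the numbers of miRNAs above or below 0 and in the median. The part of red blood cells in the day 5 values of the members was not tested.

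The 7 listed leukocyte miRNAs summed to 194 to 453 TPM before DSS, 1285 to 2468 TPM on day 5 and 6203 to 9501 TPM on day 12. On day 12 miR-223-3p had the highest mean of the list (4488 TPM), after 8.97 TPM before DSS and 362 TPM on day 5. Not all followed the sum. By phase in the same order, miR-342-3p had means of 173, 163 and 109 TPM and miR-150-5p of 28.6, 196 and 190 TPM, both at low counts. Before DSS, 0 counts were seen for miR-155-5p, miR-142a-3p and miR-223-5p. Of the 4 tested, both arms of miR-223 and of miR-142a, 4 rose on day 12 against before DSS by edgeR, where 6.57% of all 137 miRNAs did. On day 5 against before DSS 0 passed (0% of all), and on day 12 against day 5 1 rose (2.92% of all). miR-223-3p, miR-223-5p and miR-142a-3p had 1, 0 and 0 counts before DSS and 15, 4 and 8 on day 5. They passed the filter on low counts through day 12, where they were high, so the 4 of 4 is partly set by the filter. miR-150-5p, miR-155-5p and miR-342-3p did not pass it. The 9 miRNAs of intestinal epithelium, such as miR-192-5p and miR-148a-3p, held 26.4% to 44.2% of all counts before DSS, 15.5% to 31.5% on day 5 and 18.2% to 26.7% on day 12. The fitted directions were mixed: 2 of 9 had log2 fold changes above 0 on day 5 against before DSS, 4 of 9 on day 12 against before DSS and 7 of 9 on day 12 against day 5, and 0 passed by edgeR in any of these. On day 12 against before DSS, miR-148a-3p had -1.40 ± 0.43 and miR-200b-3p 1.27 ± 0.52 (log2, SE; edgeR adjusted p = 0.0803 and 0.212). The 5 members together made up 1.13% ± 0.35 of counts before DSS (SD, n = 4), 2.39% ± 0.44 on day 5 (SD, n = 3) and 1.42% ± 0.82 on day 12 (SD, n = 4). The part of either list in the values of the members was not tested.

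**Figure D5:**
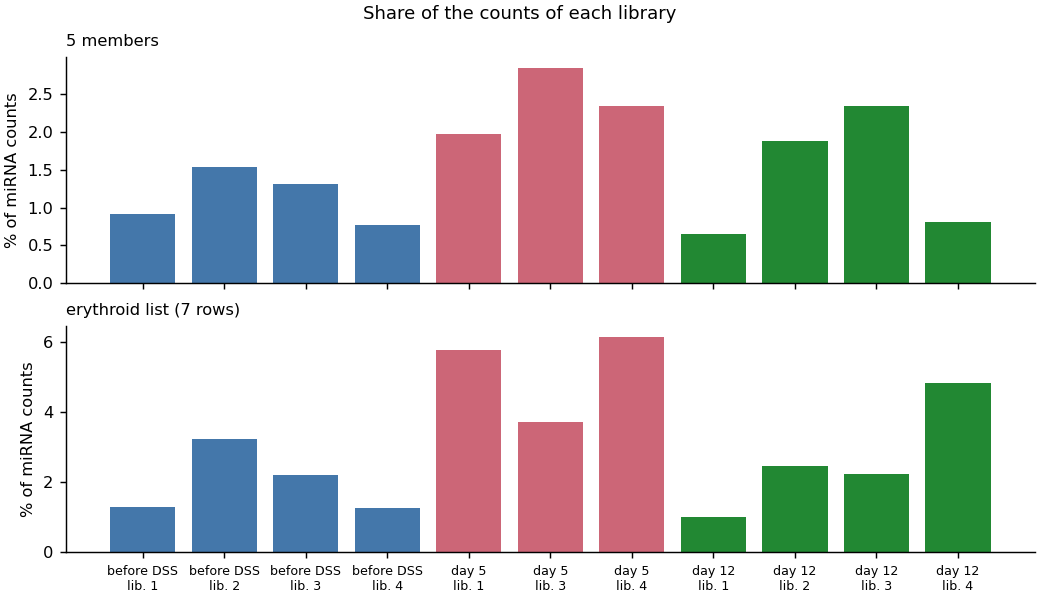
Share of all miRNA counts of each library (y axis, percent, from 0) held by the 5 members (top) and by the 7 analysed miRNAs of the red blood cell list (bottom), coloured by phase. On day 12, library 4 has the highest red blood cell share (4.83%) and library 3 the highest share of the members (2.35%).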

How the data were processed

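Per the labels' protocols, RNA was extracted from feces with a mirVana kit, TruSeq small RNA libraries were sequenced on an Illumina HiSeq instrument, and a vendor program took out adapter dimers, junk, repeats and reads of the common RNA families. The aligner, miRNA release, mismatches and build used for counting were not given in the sources used here. The authors deposited raw read counts for 616 rows (544 miRNA names and 72 numbered) and TPM values, which in the 4 day 12 columns equal the count over the library total with no length term. TPM was computed from the counts in the same way for all libraries. The deposited data hold 8 further columns of values, among them the TPM of the other libraries, that were not used. Totals of the counts ran from 11749 to 40835, and they are miRNA totals, not sequencing depth.

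Day 12 columns were matched to samples by number, and the day 5 and before-DSS columns to their group only, since their numbers or day name differ from the titles. Library numbers in the text are those of the table's columns. The protocol's number of libraries is below the 11 samples listed.

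Counts were tested with edgeR 4.0.16 in R 4.3.3 (quasi-likelihood F-test, TMM factors, all 11 libraries, group as the only term) after edgeR's filter for low counts at its defaults, which left 137 rows with 94.1% to 98.2% of counts. Adjusted p-values are Benjamini-Hochberg over these rows, called below 0.05. Some of the rows had the same fitted values, such as miR-122-5p and miR-122b-3p, and were counted as separate miRNAs in the shares of all 137. The fit was run on simulated counts with larger changes than those of the members, which does not measure its power for changes of their size. CPM with TMM factors used the total of the 137 rows. Ratios had 0.5 added to each count for the log2 values and were compared with exact permutation tests (scipy 1.17.1). Correlations used log2 CPM with a prior count of 2, and the rows most like each member are the 2 with the highest Pearson's r. Named besides the members were the other arms and seed mates and the marker lists. The members and lists were chosen with earlier results of these data known. Alternatives were other scalings and filters, DESeq2 1.42.0, limma-voom (limma 3.58.1), only the compared groups, a replicate block, leaving out the 5 most abundant rows, a pseudocount of 1 in ratios and leaving out each library. Removal of the numbered rows was added after the data were seen.

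Same-numbered libraries deviated together from their group means in each pair of before DSS and day 12 (r 0.15 to 0.51, 4 pairs) and of day 5 and day 12 (0.10 to 0.35, 3 pairs, the lowest 0.101), over the 0.1 set for pairing. They did not in before DSS and day 5 (-0.10 to 0.13). Differently numbered pairs ranged from -0.60 to 0.46 (12 pairs), -0.47 to 0.46 (9 pairs) and -0.20 to 0.24 (9 pairs) in the same order. Some of these were above same-numbered pairs, so passing 0.1 does not by itself set each same-numbered pair apart. The mean r was higher for same-numbered than for differently numbered pairs. It was 0.35 against -0.13 in before DSS and day 12, 0.23 against -0.07 in day 5 and day 12, and 0.04 against -0.01 in before DSS and day 5. The main fit and the permutation tests of ratios took no pairing into account. The labels do not state a pairing.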

Additional observations from a re-analysis of the deposited data

Results flagged for a closer look

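In 24 groups of 4 libraries checked for a library far from the others (5 members on 2 scales, and 2 ratios, before DSS and on day 12), 2 had one, where chance gives about 1 in 20. Both were TPM values of miR-20a-5p. Before-DSS library 2 had 982 TPM from 13 counts, where the other 3 had 466 to 534 TPM. Day 12 library 3 had 1037 TPM from 26 counts, where the other 3 had 323 to 424 TPM. On the CPM scale with TMM factors neither library stood apart by the same measure.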

How the results depend on the processing

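Over 22 alternatives per comparison, 0 members passed in either comparison of day 12. On day 5 against before DSS the count was 0 in 20 and 1 with library totals only and with DESeq2, miR-106b-3p each time. With the replicate block (column number) 0 members passed, with log2 fold changes on day 5 of 1.28 for miR-106b-3p (edgeR adjusted p = 0.0656) and 0.88 for miR-25-3p (0.0853), and it changed no call of a member. The block raised the calls among all miRNAs from 0 to 16 on day 5 against before DSS, from 9 to 15 on day 12 against before DSS and from 5 to 14 on day 12 against day 5.

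In the same order, calls among all miRNAs were 15, 17 and 21 without a filter. On day 5 against before DSS they were 11 with library totals only, and 5 with DESeq2 or at least 10 CPM in 3 libraries. On day 12 against day 5 they were 2 with library totals only or the compared groups only, 10 with the 10 CPM filter, 12 with DESeq2 and 1 without the numbered rows. Leaving out each library gave 0 to 2, 5 to 14 and 1 to 7 calls. They were 2 on day 5 against before DSS without day 12 library 4, and on day 12 against before DSS 5 and 14 without before-DSS libraries 1 and 2. On day 12 against day 5 they were 2 without before-DSS library 1, 3 or 4 or day 5 library 1 or 3, and 1 without day 5 library 4 or day 12 library 2 or 3.

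miR-20a-5p on day 5 against before DSS had log2 fold changes of 0.29 with library totals only and 0.092 without the numbered rows, against -0.08. Leaving out each library it ranged from -0.25 to 0.089, from -0.49 to 0.021 on day 12 against before DSS and from -0.41 to 0.076 on day 12 against day 5. miR-92a-3p on day 12 against before DSS ranged from -0.038 to 0.41 and miR-93-5p on day 12 against day 5 from -0.34 to 0.0022. The log2 ratio of miR-93-5p to miR-20a-5p ranged from -0.20 to 0.175 on day 12 against day 5, and from 0.83 to 1.03 and 0.72 to 1.09 on days 5 and 12 against before DSS. That of miR-25-3p to miR-92a-3p ranged from -0.19 to 0.19 on day 12 against before DSS. The median of all miRNAs moved by 0.33 and -0.30 on day 5 against before DSS and day 12 against day 5 with library totals only, and by 0.16 and -0.12 without the numbered rows. The cause was not tested. The remaining member values kept their direction under the alternatives run. With 8 to 59 counts a library, miR-20a-5p, miR-93-5p and miR-106b-3p are limited by counting error.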
